A study of Arabidopsis thaliana with 14 samples.

Results

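Late embryogenesis abundant (LEA) proteins are small, mostly hydrophilic proteins that plants accumulate late in seed maturation, before the seed dries. Many of them are unordered in solution and fold on drying, and they are known for protecting membranes and enzymes in dry or cold cells. Their genes are classic targets of abscisic acid and of the regulators of seed maturation, and they fall into families that differ in sequence. The signals of 10 Arabidopsis thaliana LEA genes are described here, namely those listed for this account for which a probe set of the array is assigned to that gene alone. Each of the 10 had 1 such probe set, out of 13286 genes with such a probe set and a matched locus. AT5G44310, AT4G21020, AT3G15670, AT3G17520, AT3G02480 and AT2G42560 belong to the LEA_4 family, whose proteins are built from short repeats that can form an amphipathic helix. AtLEA4-1 (AT1G32560) and LEA4-5 (AT5G06760) belong to the D-113 family, and M10 (AT2G41280) and M17 (AT2G41260) form the small AtM family. By the TAIR10.1 gene order, M10 and M17 are close neighbours on chromosome 2 with 1 gene between them.

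Seeds of the Ws-0 accession with mature green embryos were sectioned after fixation in ethanol and acetic acid and embedding in paraffin, and 6 compartments were cut out by laser. The 7 groups, each with 2 arrays, were whole seeds, embryo proper, chalazal endosperm, micropylar endosperm, peripheral endosperm, chalazal seed coat and seed coat. The labels call the whole seeds laser captured too. No group was mutant or treated, and all shared the accession, the stage and growth under continuous light. The replicates are called biological in the labels, but the plants and seeds behind each are not given, so p-values measure the spread between these arrays only. A few nanograms of RNA per sample were amplified before hybridization to an ATH1 array.

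Signal is given as the deposited array intensity, in arbitrary units and without a logarithm, first for replicate 1 and then for replicate 2. Probe sets differ in brightness, so a gene's signal is compared only with its own signal in other compartments. Correlations of log2 signal between the 2 arrays of a group, over the 14257 probe sets tested, lay between 0.812 and 0.928. The arrays' median signals lay between 134 and 203. The embryo markers STOMAGEN and YAB3, the only 2 of 6 on the list that were measured, held to the embryo. A gene is called measured where a probe set was assigned to it alone. STOMAGEN, a secreted peptide of leaf development, had 5110 and 2983 in embryo, against at most 61.8 on any array of the other 5 compartments. YAB3, a transcription factor of cotyledon and leaf polarity, had 1978 and 1557 in embryo, against at most 175. The flavonoid enzyme gene BAN had 357 and 1189 in chalazal seed coat and at most 54.9 on any other compartment array. DELTA-VPE, a seed coat protease, had 2153 and 877 in chalazal endosperm, 535 and 749 in micropylar endosperm, 862 and 812 in peripheral endosperm, 708 and 540 in chalazal seed coat, and 1736 and 2102 in seed coat. All 3 endosperm regions thus held this marker, and 1 chalazal endosperm array exceeded the seed coat arrays. Of the 5 endosperm markers only AGL62 was measured, with 41.7 and 119 in chalazal endosperm, 23.6 and 11.003 in micropylar endosperm, 1.43 and 0.94 in peripheral endosperm, 92.4 and 127 in chalazal seed coat, and 10.2 and 17.3 in seed coat. It was thus highest in chalazal seed coat, although listed for endosperm, and it did not set the endosperm labels apart.

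AT5G44310 gave an orderly gradient. Together with AT4G21020 it is one of the LEA_4 proteins located in mitochondria and plastids in fusion studies. AT5G44310 had 15369 and 14049 in whole seeds, 46818 and 53480 in embryo, 3991 and 2315 in chalazal endosperm, 15757 and 19172 in micropylar endosperm, 13088 and 4968 in peripheral endosperm, 153 and 135 in chalazal seed coat, and 778 and 1054 in seed coat. Both arrays of each compartment lay apart from both arrays of the next in the order embryo, micropylar, peripheral and chalazal endosperm, seed coat and chalazal seed coat. The ratio of geometric means between the ends, embryo over chalazal seed coat, was 347-fold. In bulk samples such as these, fewer cells of a type and less RNA per cell cannot be told apart.

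AT4G21020 had the same order of means with a flatter top. Its signal was 2741 and 2509 in whole seeds, 22835 and 24159 in embryo, 7350 and 5158 in chalazal endosperm, 15286 and 21232 in micropylar endosperm, 17150 and 10616 in peripheral endosperm, 376 and 276 in chalazal seed coat, and 478 and 1409 in seed coat. The embryo arrays stood above all others, micropylar and peripheral endosperm overlapped, and the remaining neighbours in the order were separate. Embryo exceeded chalazal seed coat 73.0-fold.

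AT3G15670, a relative of the cotton LEA protein D-7, had 902 and 403 in whole seeds, 7542 and 16368 in embryo, 540 and 41.3 in chalazal endosperm, 4860 and 3109 in micropylar endosperm, 3247 and 1186 in peripheral endosperm, 19.2 and 220 in chalazal seed coat, and 190.0 and 38.6 in seed coat. Embryo was separate from micropylar endosperm, while the chalazal endosperm and both seed coats overlapped one another. As a ratio, its chalazal endosperm arrays, like its chalazal seed coat arrays, lay further apart than those of its other groups. One chalazal seed coat array lay below the floor of 23.4, the value to which lower signals were raised before logarithms were taken.

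AT3G17520, another LEA_4 gene, had 5012 and 3520 in whole seeds, 18785 and 43672 in embryo, 7757 and 2119 in chalazal endosperm, 19876 and 11693 in micropylar endosperm, 15061 and 3931 in peripheral endosperm, 97.3 and 105 in chalazal seed coat, and 683 and 375 in seed coat. Its embryo and 3 endosperm regions formed a chain in which each overlapped the next. Below them the seed coat and then the chalazal seed coat were each separate, and embryo exceeded chalazal seed coat 283-fold.

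AT3G02480, a short LEA_4 gene annotated as responsive to abscisic acid, was about as high in peripheral endosperm as in embryo. Its values were 3839 and 2324 in whole seeds, 41019 and 47816 in embryo, 18828 and 3856 in chalazal endosperm, 27177 and 18923 in micropylar endosperm, 44276 and 27112 in peripheral endosperm, 357 and 142 in chalazal seed coat, and 3311 and 4042 in seed coat. Embryo overlapped peripheral endosperm, and 1 chalazal endosperm array lay between the seed coat arrays. Both chalazal seed coat arrays lay below all others, with a geometric mean 197-fold below that of embryo, and both seed coat arrays also lay below both embryo arrays.

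AT2G42560, another LEA_4 gene, was the one of these 6 whose highest mean was not in the embryo. It had 1587 and 1261 in whole seeds, 9528 and 46115 in embryo, 18748 and 4689 in chalazal endosperm, 47113 and 47455 in micropylar endosperm, 41517 and 24543 in peripheral endosperm, 6.68 and 119.5 in chalazal seed coat, and 2705 and 4458 in seed coat. The embryo arrays lay far apart, one below and one above the peripheral endosperm arrays, while the micropylar arrays were nearly equal. Micropylar endosperm exceeded chalazal seed coat 893-fold with 1 chalazal seed coat array raised to the floor.

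AtLEA4-1, of the D-113 family, behaved like the LEA_4 genes. It had 6874 and 6033 in whole seeds, 29342 and 28267 in embryo, 5403 and 1393 in chalazal endosperm, 15804 and 7482 in micropylar endosperm, 7858 and 4927 in peripheral endosperm, 8.07 and 127 in chalazal seed coat, and 569 and 1202 in seed coat. Embryo, the overlapping endosperm regions, seed coat and chalazal seed coat made 4 separate steps, and the ends lay 527-fold apart with 1 chalazal seed coat array raised to the floor.

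LEA4-5, also of the D-113 family and known from leaves and roots under water deficit, was nearly even. It had 720 and 599 in whole seeds, 778 and 2151 in embryo, 840.1 and 423 in chalazal endosperm, 805 and 692 in micropylar endosperm, 859 and 853 in peripheral endosperm, 391 and 558 in chalazal seed coat, and 551 and 327 in seed coat. One embryo array stood above every other array and the second lay within the endosperm range. The highest and lowest compartment means were 3.05-fold apart.

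M10 stayed low in every compartment. It had 152 and 91.2 in whole seeds, 83.98 and 5.86 in embryo, 25.2 and 232 in chalazal endosperm, 17.9 and 29.3 in micropylar endosperm, 141 and 167 in peripheral endosperm, 218 and 18.0 in chalazal seed coat, and 205 and 114 in seed coat. The arrays of embryo, of chalazal endosperm and of chalazal seed coat lay far apart, every compartment overlapped its neighbour in the order, and 3 of its 14 arrays were at or below the floor.

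M17 was near or below the floor throughout, on 11 of 14 arrays. It had 60.6 and 7.61 in whole seeds, 5.41 and 2.67 in embryo, 19.9 and 10.1 in chalazal endosperm, 9.32 and 2.93 in micropylar endosperm, 21.0 and 41.1 in peripheral endosperm, 1.93 and 3.62 in chalazal seed coat, and 7.62 and 98.2 in seed coat. The 3 arrays above the floor came from 3 different groups. M17 failed the filter on low signals and was not tested, so the counts below run over 9 genes.

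**Figure D1:**
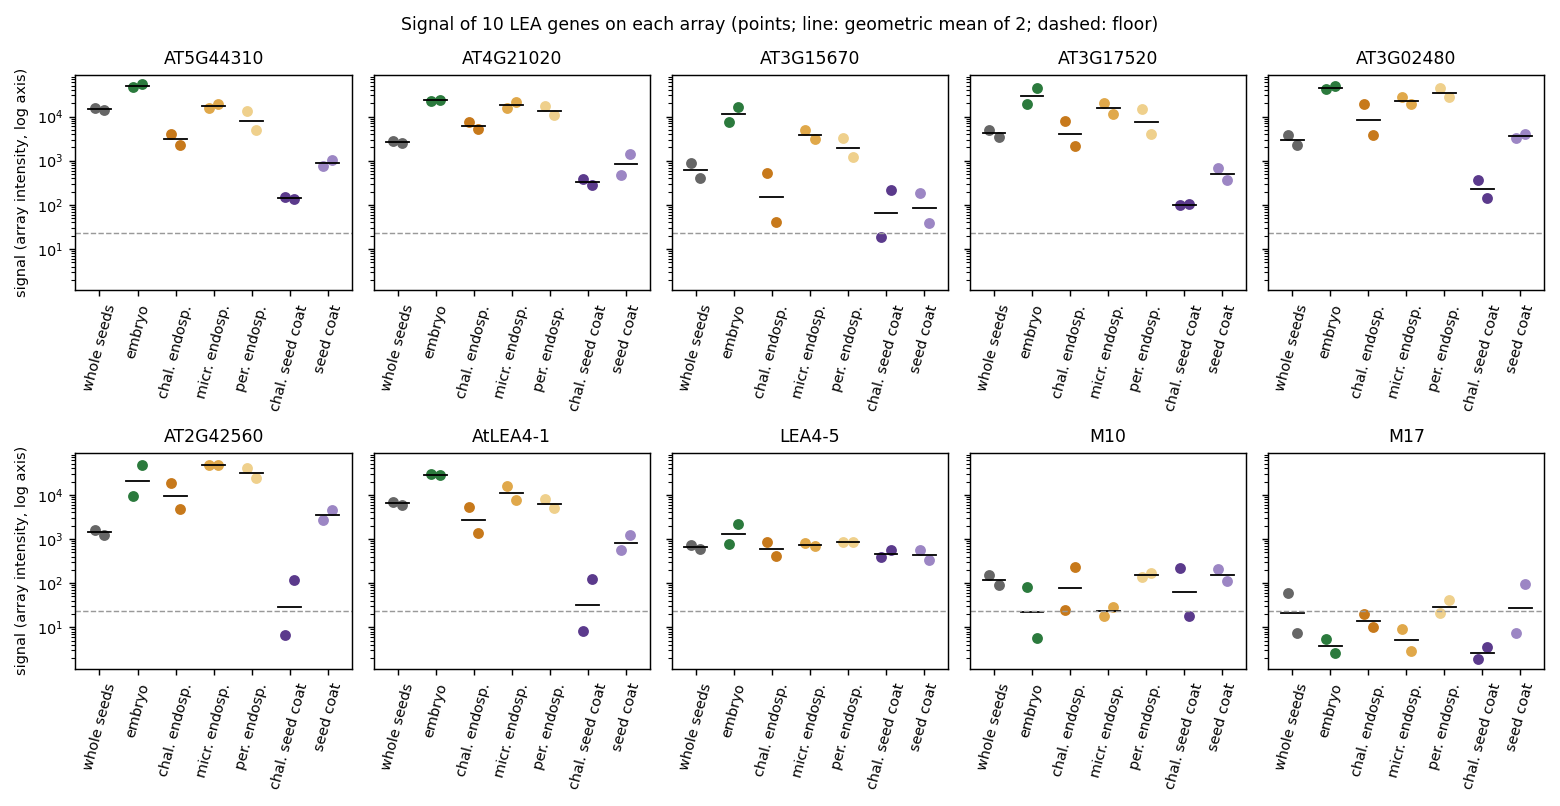
Signal of the 10 LEA genes on each of 14 arrays, with array intensity on a log axis against group. Points are arrays (replicate 1 left, replicate 2 right), the line is the geometric mean of the 2 as deposited, and the dashed line is the floor of 23.4. The 6 LEA_4 genes and AtLEA4-1 have their lowest means in chalazal seed coat, LEA4-5 is nearly flat, and M10 and M17 lie at or below 232.

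The highest compartment mean, taken on the log2 scale, was in the embryo for 7 of the 10 genes, against 20.8% of the probe sets tested. Chalazal seed coat held the lowest mean for 7 of 10, against 22.5% of probe sets, and both held for 6 of 10, against 8.86%. Where chalazal seed coat tied for lowest at the floor, as in M17, it was not counted, in genes or in probe sets. The full order embryo, micropylar, peripheral and chalazal endosperm, seed coat, chalazal seed coat was that of AT5G44310, AT4G21020, AtLEA4-1, AT3G15670 and AT3G17520, 5 genes of 10, against 1.31% of probe sets. It ranks means only, and neighbours had separate arrays at each step in AT5G44310 alone. Micropylar against peripheral endosperm passed the test given below in none of these genes. In AT3G15670 chalazal seed coat minus seed coat was -0.26 on the log2 scale, with overlapping arrays. Both seed coat means lay below all 3 endosperm means in 8 of 10, against 23% of probe sets, and the exceptions were M10 and M17. These shares describe a list chosen with earlier results of these arrays known.

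Embryo signal was set against the mean of the other 5 compartments with limma, which fits a linear model to each probe set. To estimate the spread, limma also draws on all probe sets. Differences are log2 values of embryo minus the rest. Of the 9 tested genes 8 were higher in embryo and none lower, at an adjusted p under 0.05, while 12.6% of all 14257 probe sets tested were called higher. The median difference was 2.98 over the 9 genes and -0.01 over all probe sets. AT5G44310 was higher by 4.49 ± 0.30 (SE, limma adjusted p = 3.1e-08), which is 22.4-fold. AT3G15670 had the largest difference of the 9, 4.91 ± 0.85 (limma adjusted p = 0.00048), with a larger standard error. AtLEA4-1 followed at 4.23 ± 0.52 and AT3G17520 at 3.92 ± 0.48, with limma adjusted p of 2e-05 and 1.9e-05. AT3G02480 was higher by 2.98 ± 0.44 and AT4G21020 by 2.83 ± 0.32, and both passed the test. All embryo arrays lay above all other compartment arrays for AT5G44310, AT4G21020, AtLEA4-1 and AT3G15670, 4 genes of 9, against 9.08% of probe sets. This comparison takes a mean over 5 compartments, and AT2G42560 passed it with an embryo mean below those of micropylar and peripheral endosperm. The calls of AT2G42560 (2.12 ± 0.58, limma adjusted p = 0.013) and LEA4-5 (1.12 ± 0.39, limma adjusted p = 0.045) were less stable. LEA4-5 lost its call in 14 of 22 alternatives, 10 of them with 1 array left out (limma adjusted p up to 0.65, without embryo replicate 2), and AT2G42560 in 2, without embryo replicate 2 (limma adjusted p = 0.39) and with no filter (limma adjusted p = 0.055). M10 differed by -0.86 ± 0.84 and did not pass (limma adjusted p = 0.5).

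Against the 3 endosperm regions alone, 5 of the 9 genes were higher in embryo, with 7.71% of probe sets called higher. The median was 1.23 for the 9 genes and 0.01 for all probe sets. The log2 differences were 2.73 ± 0.32 for AT5G44310, 3.41 ± 0.90 for AT3G15670, 2.34 ± 0.55 for AtLEA4-1, 1.88 ± 0.51 for AT3G17520 and 1.04 ± 0.34 for AT4G21020, with limma adjusted p of 1.4e-05, 0.015, 0.0073, 0.017 and 0.047 in that order. Signals of AT3G02480 (1.23 ± 0.46, limma adjusted p = 0.085) and LEA4-5 (0.84 ± 0.41, limma adjusted p = 0.2) did not pass. AT2G42560 differed by -0.21 ± 0.61 (limma adjusted p = 0.87), and M10 by -0.61 ± 0.89. The count fell to 2 without embryo replicate 1 and to 1 without embryo replicate 2, and of the 5 genes AT5G44310 alone kept its call in each alternative run. Embryo replicate 2 was above replicate 1 in 7 of the 8 genes other than M10 and M17, a count for which the share of all probe sets was not computed.

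Endosperm was then set against both seed coats, as the mean of 3 regions minus the mean of 2. All 6 LEA_4 genes and AtLEA4-1 were higher in endosperm, 7 of 9, with 21.4% of probe sets called higher. The median was 4.38 for the 9 genes and 0.03 for all probe sets. AT2G42560 showed the largest difference, 5.82 ± 0.48 (limma adjusted p = 1.4e-07), or 56.4-fold, followed by AT3G17520 at 5.11 ± 0.40 and AtLEA4-1 at 4.75 ± 0.44. AT4G21020, AT5G44310 and AT3G02480 were higher by 4.48 ± 0.27, 4.38 ± 0.25 and 4.38 ± 0.36, and AT3G15670 by 3.74 ± 0.71 (limma adjusted p = 0.00049). Each of these 7 calls held in all 22 alternatives. LEA4-5 was at 0.70 ± 0.32 (limma adjusted p = 0.093), and it passed when arrays were scaled by their medians or by their spike-in controls, at limma adjusted p of 0.025 and 0.0027. M10 was at -0.63 ± 0.70 and did not pass. Of 13 listed storage protein genes 5 were measured, and all 5 were higher in endosperm than in seed coats too. All 5 were also higher in embryo than in the other compartments, where 12.6% of probe sets were called higher.

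Within the endosperm, no LEA gene separated micropylar from peripheral endosperm in limma after adjustment, where 0.154% of probe sets were called higher and 0.147% lower. The 2 largest differences in size were 1.11 ± 0.39 for AT5G44310 and -2.55 ± 1.09 for M10, at limma adjusted p of 0.41 and 0.58. The other 7 tested genes lay between -0.61 ± 0.57 for AT3G02480 and 0.99 ± 0.62 for AT3G17520.

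Chalazal endosperm was lower than the mean of the other 2 endosperm regions in 4 of 9 LEA genes, with 4.73% of probe sets called lower. The median was -1.58 for the 9 genes and 0.01 for all probe sets. AT3G15670 fell by 4.21 ± 0.95 on the log2 scale (limma adjusted p = 0.01), AT5G44310 by 1.96 ± 0.34 (limma adjusted p = 0.0015), AT3G02480 by 1.72 ± 0.49 (limma adjusted p = 0.037) and AT4G21020 by 1.34 ± 0.36 (limma adjusted p = 0.027). AT2G42560 had -2.05 ± 0.64 with all chalazal arrays below the others, and narrowly missed the threshold (limma adjusted p = 0.057). AtLEA4-1 had -1.58 ± 0.59, AT3G17520 -1.42 ± 0.54 and LEA4-5 -0.42 ± 0.43, and M10 had 0.27 ± 0.94. The chalazal arrays themselves disagreed, replicate 1 being above replicate 2 in 8 of 8 genes other than M10 and M17, with a median ratio of 3.77. Replicate 1 was also the higher in 8 of 8 in peripheral endosperm (median ratio 1.66) and in whole seeds (1.23). In micropylar endosperm it was higher in 5 and lower in 3. The share of all probe sets was not computed for these counts, and whether they are particular to LEA genes was not tested. The count was 1 without chalazal replicate 2, 2 without micropylar replicate 2 or peripheral replicate 1, and AT5G44310 was the gene that kept its call in each alternative. The seed coat marker DELTA-VPE had 2153 in chalazal endosperm replicate 1, the array with the higher LEA signal, and 877 in replicate 2. It had 862 and 812 in peripheral and 535 and 749 in micropylar endosperm. The part of seed coat content in the lower LEA signal was not tested.

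Chalazal seed coat was lower than seed coat in 6 of 9 LEA genes, with 7.77% of probe sets called lower. The median was -2.32 for the 9 genes and -0.06 for all probe sets. AT2G42560 fell most, by 6.04 ± 0.74 on the log2 scale (limma adjusted p = 7.6e-05), followed by AT3G02480 by 4.02 ± 0.57 and AtLEA4-1 by 3.92 ± 0.68, with limma adjusted p of 0.00024 and 0.0012. AT5G44310 fell by 2.65 ± 0.39 (limma adjusted p = 0.00034), AT3G17520 by 2.32 ± 0.62 (limma adjusted p = 0.02) and AT4G21020 by 1.35 ± 0.42 (limma adjusted p = 0.039). In these 6 genes both chalazal seed coat arrays lay below both seed coat arrays, as they did for 28.4% of probe sets. AT3G15670 with -0.26 ± 1.10, LEA4-5 with 0.14 ± 0.50 and M10 with -1.10 ± 1.09 did not pass. Scaling by the spike-in controls moved the median of all probe sets by 1.11 in this comparison, and under it AT4G21020 stood at -0.19 (limma adjusted p = 0.76) and AT3G17520 lost its call (limma adjusted p = 0.16), while the other 4 stayed lower. In AT2G42560 the step at the chalazal pole was larger in seed coat than in endosperm, by 3.99 ± 0.98 (limma adjusted p = 0.026), in a contrast added after the data were seen that called 6.16% of probe sets. That call was lost in 9 of 22 alternatives. Leaving out 1 array ended the call of AT4G21020 between the seed coats in 8 of 14 cases, at a limma adjusted p of up to 0.37 without seed coat replicate 2, and that of AT3G17520 in 3, at up to 0.12 without seed coat replicate 1.

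**Figure D2:**
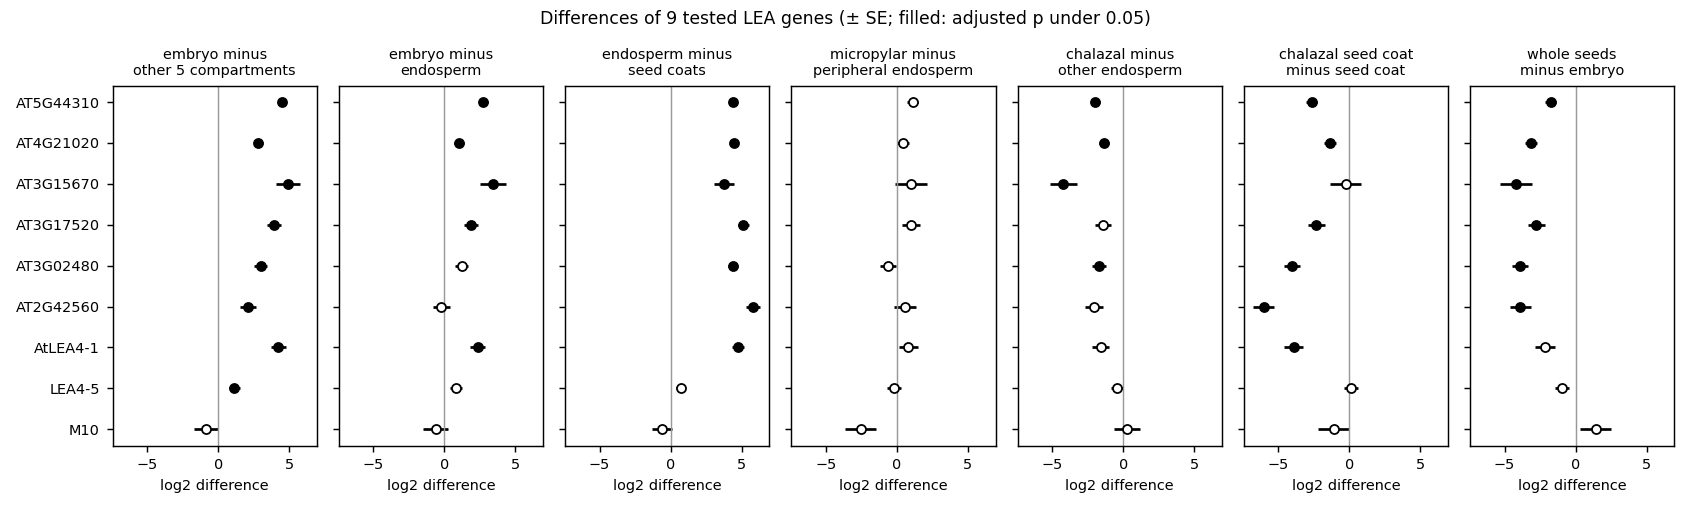
Log2 differences of the 9 tested LEA genes (rows) in the 7 comparisons (panels), with standard errors from limma as bars. Filled points have an adjusted p under 0.05. The 7 genes from AT5G44310 to AtLEA4-1 lie between 3.74 and 5.82 for endosperm minus seed coats, while LEA4-5 and M10 lie between -2.55 and 1.41 in the 7 panels.

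Whole seeds, which hold every compartment, were lower than embryo in 6 of 9 LEA genes, with 1.26% of probe sets called lower. The median was -2.77 for the 9 genes and 0.10 for all probe sets. AT3G15670 fell by 4.20 ± 1.10 on the log2 scale, AT3G02480 by 3.89 ± 0.57, AT2G42560 by 3.89 ± 0.74, AT4G21020 by 3.16 ± 0.42, AT3G17520 by 2.77 ± 0.62 and AT5G44310 by 1.77 ± 0.39. Their limma adjusted p were 0.036, 0.00043, 0.0049, 0.00018, 0.014 and 0.013 in that order. AtLEA4-1 had -2.16 ± 0.68 (limma adjusted p = 0.086), LEA4-5 -0.98 ± 0.50 and M10 1.41 ± 1.09. The whole-seed mean of AT3G02480 and of AT2G42560 lay below 5 of the 6 compartment means, the seed coat's included, and that of AT4G21020 below 4, while 36.3% of probe sets lay below at least 4. The embryo markers had 1856 and 1060 in whole seeds for STOMAGEN and 1757 and 1287 for YAB3, beside the embryo values given above, and the part of embryo content in the LEA values was not tested. The count was 2 without embryo replicate 2 or whole-seed replicate 2 and 3 without whole-seed replicate 1, and AT4G21020 and AT3G02480 kept their calls in each alternative.

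The LEA genes differed in how alike their profiles were. Over the 45 pairs, Pearson's r of log2 signal across the 14 arrays had a median of 0.71, from -0.53 for AT3G15670 with M10 to 0.96 for AT5G44310 with AtLEA4-1. M10 and M17, the neighbours on the chromosome, had an r of 0.29. Among all other genes the nearest to AT5G44310 was AT5G01300 (r = 0.98), to AT4G21020 the vicilin-like storage protein gene AT2G18540 (r = 0.97), to AtLEA4-1 AT1G75490 (r = 0.97) and to AT3G17520 AT1G63240 (r = 0.96). AT1G27990 was nearest both to AT3G15670 (r = 0.97) and to LEA4-5 (r = 0.85). The nearest to AT3G02480 was AT5G13560 (r = 0.96) and to AT2G42560 AT3G56350 (r = 0.93), whereas M10 and M17 reached no more than 0.77 and 0.73. All such values share the same 14 arrays in 7 groups and describe them only.

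Of 41 further LEA genes listed, 25 were measured and 14 passed the filter, and they did not follow one pattern. Embryo against the other compartments gave 4 higher and 5 lower of 14 (12.7% of probe sets were lower), with a median of 0.33, and embryo against endosperm 4 higher and 4 lower (8.41% lower). Endosperm against seed coats gave 8 higher and 3 lower (20.4% lower), chalazal against other endosperm 1 higher and 5 lower (4.57% higher), and chalazal seed coat against seed coat 2 higher and 2 lower (7.13% higher). In limma none of the 14 was called in whole seeds against embryo, where 3.54% of probe sets were called higher and 1.26% lower. The median difference there was -1.18 for the 14 genes and 0.10 for all probe sets. The dehydrin LEA (AT2G21490), of a family that binds membranes under cold and drought, had a profile close to that of AT5G44310 (r = 0.98). Its signal was 18442 and 21974 in whole seeds, 46953 and 53320 in embryo, 7297 and 3014 in chalazal endosperm, 21118 and 15983 in micropylar endosperm, 26293 and 15823 in peripheral endosperm, 394 and 123 in chalazal seed coat, and 1821 and 2506 in seed coat. Its embryo value exceeded the other compartments by 3.71 ± 0.37 (limma adjusted p = 2.1e-06).

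Of the 5 dehydrins tested, LEA was higher in embryo than in the other compartments, AT4G38410, COR47 and AT1G54410 were lower, and LTI30 did not pass, at 0.99 ± 0.82 (limma adjusted p = 0.42). LTI30, a cold-induced dehydrin, was higher in endosperm than in seed coats by 3.15 ± 0.69 (limma adjusted p = 0.0015), as the 7 genes above were. The calls of COR47 and AT1G54410 in embryo ended without embryo replicate 1 (limma adjusted p = 0.058) and without embryo replicate 2 (limma adjusted p = 0.15). The dehydrin AT4G38410 had 99.7 and 153 in embryo, against 672 and 732 in chalazal, 13102 and 11679 in micropylar and 11738 and 4351 in peripheral endosperm, a log2 difference from endosperm of -5.00 ± 0.51 (limma adjusted p = 3.4e-06). Outside the dehydrins, DI21, a drought-induced gene of the LEA_3 family, had a log2 difference of embryo from endosperm of -2.40 ± 0.37 (limma adjusted p = 0.00024), with 484 and 672 in embryo against 12206 and 13559 in micropylar endosperm, its highest region. COR47, also cold-induced, had 3294 and 3580 in chalazal seed coat, against 60.01 and 378 in seed coat (4.51 ± 0.88, limma adjusted p = 0.003), the reverse of AT2G42560. The small dehydrin AT1G54410 was highest in chalazal endosperm, with 110619 and 67589 there, against 1184 and 2081 in micropylar and 1472 and 1349 in peripheral endosperm (5.86 ± 0.35, limma adjusted p = 1.7e-07). Next came chalazal seed coat with 50428 and 44426 and seed coat with 14699 and 12001. Its mean over the endosperm regions differed from that of the seed coats by -2.12 (limma adjusted p = 7.3e-06). LEA18, the D-113 relative of AtLEA4-1 and LEA4-5, had 1376 and 1175 in chalazal seed coat, where AtLEA4-1 was lowest, and 476 and 1685 in embryo. Its chalazal seed coat minus seed coat difference was 3.35 ± 1.30 and did not pass (limma adjusted p = 0.096). The 11 genes that failed the filter had signals between 3.49 and 237, with 74 of 154 array values at or below the floor.

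**Figure D3:**
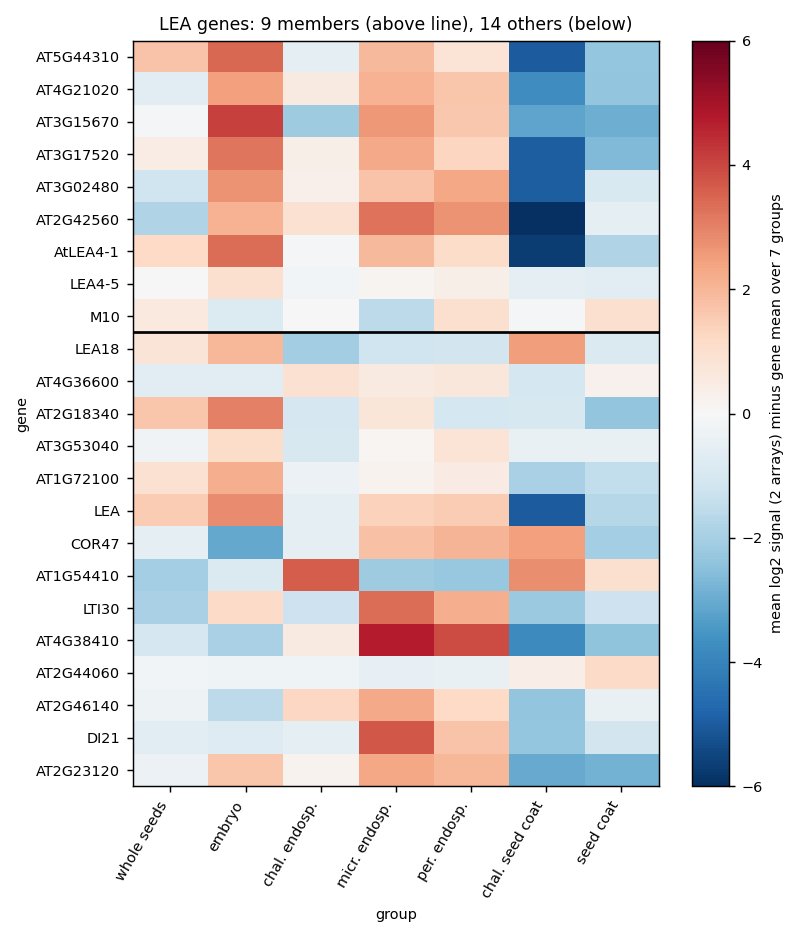
Mean log2 signal of each LEA gene in each group (mean of 2 arrays) minus that gene's mean over the 7 groups, as colour. The 9 tested genes described above stand over the line and the 14 others that passed the filter under it. Upper rows are red in embryo and blue in both seed coats except for M10, faintly so for LEA4-5, while COR47, AT1G54410 and LEA18 are red in chalazal seed coat.

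Of 14 listed regulators of seed maturation 2 were measured, that is, had a probe set assigned to them alone. EEL, a bZIP factor that acts on LEA promoters of the Em type, had 42788 and 34481 in embryo and was higher there than in the other compartments by 1.82 ± 0.22 (limma adjusted p = 1.9e-05). It was also higher in endosperm than in seed coats by 2.84 ± 0.19 (limma adjusted p = 1.6e-08). BZIP53, a bZIP activator of maturation genes, differed by -0.81 ± 0.21 in embryo (limma adjusted p = 0.011) and was higher in chalazal seed coat than in seed coat by 1.22 ± 0.27 (limma adjusted p = 0.0079). In endosperm against seed coats BZIP53 went the other way, at -0.94 ± 0.18 (limma adjusted p = 0.00047), a call lost with spike-in scaling (limma adjusted p = 0.42). The BZIP53 calls for embryo and for chalazal seed coat ended when 1 array was left out, at limma adjusted p of 0.061 without embryo replicate 1, 0.099 without embryo replicate 2 and 0.056 without seed coat replicate 2.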

How the data were processed

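The authors deposited 1 intensity per probe set and array, on a linear scale, from 14 ATH1 arrays. GCOS is named in the submitters' processing notes, without a version, and the signal algorithm is not given in the sources used here. Each deposited array had a 2% trimmed mean intensity between 500.042 and 500.056, so the arrays had been scaled to a common mean. Here, a floor of 23.4 was set, which is the middle of the arrays' values at percentile 20, with lower values set equal to it before conversion to log2. Of 22746 probe sets that are not controls (64 control probe sets were left out), 14257 passed a filter, both arrays of at least 1 group above their array's median. A gene's probe set is one assigned to that gene alone in the platform annotation (13513 probe sets had 1 gene, 503 several, 8730 none). Limma 3.58.1 in R 4.3.3 fitted 1 mean per group over all 14 arrays (7 residual degrees of freedom) with an intensity trend, and p-values were adjusted by Benjamini-Hochberg over all 14257, called under 0.05. The pipeline was tested on simulated data.

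The LEA genes, the gene lists and the comparisons were chosen with earlier results of these data known. All 10 genes are named in each comparison, as far as tested. Further LEA genes, regulators and markers were named, and storage protein genes counted, from fixed lists. Nearest genes were named by Pearson's r over the arrays. Alternatives were no floor, no filter, no trend, median, quantile and spike-in scaling, compartment arrays alone, a replicate block and leaving out each array. No pairing by replicate number was seen in the signals: 21 correlations between same-numbered arrays' deviations ran from -0.061 to 0.096. The labels do not say whether same-numbered samples share plants or seeds. Low correlations cannot exclude it, because noise of the single arrays also lowers them. The number of arrays limits the precision.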

Additional observations from a re-analysis of the deposited data

Results flagged for a closer look

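AT2G42560 differed between the chalazal regions of endosperm and seed coat. It was lower in chalazal endosperm than in the other endosperm by 2.05 on the log2 scale, a difference that did not pass, and lower in chalazal seed coat than in seed coat by 6.04. The difference between the differences was 3.99 ± 0.98 (limma adjusted p = 0.026), with 6.16% of 14257 probe sets called in this contrast, which was added after the data were seen. It ranged from 2.66 to 5.16 over 22 alternatives and lost its call in 9 of them, with limma adjusted p up to 0.14 (without chalazal endosperm replicate 1). For the dehydrin COR47 the same contrast gave -6.93 (limma adjusted p = 0.0028), and for AT1G54410 it gave 4.03 (limma adjusted p = 0.00045). Both held in all 22 alternatives. Unlike AT2G42560, AT1G54410 was higher in both chalazal regions, by 5.86 than in the other endosperm and by 1.83 than in seed coat. COR47 was higher in chalazal seed coat than in seed coat by 4.51.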

How the results depend on the processing

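Of 36 called differences of the LEA genes, 21 kept their call in each alternative run (22, or 21 for whole seeds minus embryo, which needs the whole-seed arrays), 15 lost it in at least 1 and none reversed. For embryo minus endosperm the count of 5 became 2 with no filter, 2 with no trend and 3 with no floor, and 1 to 6 with 1 array left out. For chalazal minus other endosperm the count of 4 became 1 with no filter, 2 with no trend and 2 with quantile normalization, and 1 to 6 with 1 array left out. For whole seeds minus embryo the count of 6 became 3 with no filter and 3 with no trend, and 2 to 7 with 1 array left out. The other leave-one-out ranges were 6 to 8 for embryo minus the rest, 7 to 8 for endosperm minus seed coats, 0 for micropylar minus peripheral endosperm and 4 to 6 for chalazal seed coat minus seed coat. The cause of these changes was not tested. With the replicate block the counts stayed at 8, 5, 7, 0, 4, 6 and 6, though AT4G21020 lost its embryo minus endosperm call (limma adjusted p = 0.051).

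Signs turned in uncalled differences only. Leaving out 1 array moved M10 between -1.78 and 0.0613 for embryo minus the rest, -1.53 and 0.31 for embryo minus endosperm, -1.44 and 0.17 for endosperm minus seed coats, -1.33 and 1.87 for chalazal minus other endosperm, and -2.71 and 0.51 for chalazal seed coat minus seed coat. Spike-in scaling gave M10 0.0272 for endosperm minus seed coats and 0.15 for chalazal seed coat minus seed coat. Leaving out 1 array moved AT2G42560 between -1.34 and 0.93 for embryo minus endosperm. It moved LEA4-5 between -0.92 and 0.0719 for chalazal minus other endosperm and between -0.24 and 0.51 for chalazal seed coat minus seed coat. AT3G15670 moved between -1.87 and 1.36 for chalazal seed coat minus seed coat, and stood at 0.0107 with median, 0.067 with quantile and 0.48 with spike-in scaling.

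Over all probe sets, chalazal seed coat minus seed coat had 2125 calls, 47.9% higher, against 5052 calls, 94.3% higher, with spike-in scaling and 70.4% higher with median scaling. Endosperm minus seed coats had 51.2% higher, against 64.2% with median and 79.3% with spike-in scaling, which moved its all-probe median by 0.26 and 0.68. Chalazal minus other endosperm had 49.1% higher, against 33.9% with spike-in scaling, and whole seeds minus embryo 73.7%, against 55.5% with median scaling. With 1 array left out, calls ran from 1856 to 3956 (3601 with all arrays) for embryo minus the rest, 1182 to 2526 (2298) for embryo minus endosperm, 8 to 56 (43) for micropylar minus peripheral, 496 to 1541 (1325) for chalazal minus other endosperm, 942 to 2170 (2125) for chalazal seed coat minus seed coat and 254 to 774 (684) for whole seeds minus embryo. Micropylar minus peripheral had 18 calls with no filter, 20 with no floor and 25 with no trend or without whole seeds, and whole seeds minus embryo 432 with no filter. Of 44 called differences of other LEA genes and regulators, 22 held in all alternatives and none reversed. Signals near the floor, as in M17, M10 and the chalazal seed coat, limit every fold that rests on them.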
